A study of Mus musculus with 8 samples.

Results

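The genes described here encode the cytokine RANKL (Tnfsf11), its receptor RANK (Tnfrsf11a), the soluble decoy receptor osteoprotegerin (Tnfrsf11b) and the CSF1 receptor ligands CSF1 (Csf1) and IL34 (Il34). They were chosen by name, as the ligands and receptors that govern osteoclast formation, and make up 5 of the 50462 genes in the deposited table. RNA-Seq was performed on medial knee cartilage from 8 male, wild-type C57BL/6J mice, with 1 library per mouse. Naive mice (n = 4, day 0, 11 weeks of age) had no operation. DMM mice (n = 4, day 42, 17 weeks of age) had the medial meniscotibial ligament of the left knee cut under isoflurane, with buprenorphine as analgesic, which destabilises the medial meniscus and is used as a model of post-traumatic osteoarthritis. No sham-operated libraries were analysed here, so the effect of the operation and its drugs and the 6 weeks of added age cannot be told apart.

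RANKL is a membrane-bound or shed ligand that binds RANK on osteoclast precursors and drives them to become bone-resorbing osteoclasts. Osteoprotegerin binds RANKL and keeps it from RANK, so the balance between ligand and decoy sets the rate of osteoclast formation. CSF1 and IL34 both signal through the CSF1 receptor, which keeps osteoclast precursors and macrophages alive and makes them express RANK. In the skeleton, RANKL is made by osteocytes, osteoblasts and hypertrophic chondrocytes, and osteoprotegerin by osteoblasts and chondrocytes.

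In the GRCm38 annotation, Tnfsf11 lies on the minus strand of chromosome 14 (78277445 to 78308043). Tnfrsf11a lies on the plus strand of chromosome 1 (105780718 to 105847981) and Tnfrsf11b on the minus strand of chromosome 15 (54250619 to 54278484). Csf1 lies on the minus strand of chromosome 3 (107741048 to 107760469) and Il34 on the minus strand of chromosome 8 (110741829 to 110805924). RefSeq promoter sequences (GRCm38.p6) matched 3 of the 5 genes. The 250 bases before the transcription start are shown for the ligand that rose, Tnfsf11 (chr14:78308044-78308293, minus strand), and, for contrast, for its receptor Tnfrsf11a (chr1:105780473-105780722, plus strand) and for Csf1 (chr3:107760470-107760719, minus strand), neither of which passed the test. Capitals mark matches, on either strand, to any of the 8 motifs searched: the TATA box (TATAAA), the GC box (GGGCGG), Runx (TGTGGT), AP-1 (TGANTCA), CRE (TGACGTCA), TCF/LEF (CTTTGA), STAT (TTCNNNGAA) and PU.1 (GAGGAAG).
Tnfsf11: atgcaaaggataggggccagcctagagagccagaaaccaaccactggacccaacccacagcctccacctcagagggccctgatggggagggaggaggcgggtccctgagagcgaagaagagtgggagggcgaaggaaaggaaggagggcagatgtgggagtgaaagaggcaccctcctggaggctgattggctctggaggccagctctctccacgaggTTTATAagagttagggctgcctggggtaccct
Tnfrsf11a: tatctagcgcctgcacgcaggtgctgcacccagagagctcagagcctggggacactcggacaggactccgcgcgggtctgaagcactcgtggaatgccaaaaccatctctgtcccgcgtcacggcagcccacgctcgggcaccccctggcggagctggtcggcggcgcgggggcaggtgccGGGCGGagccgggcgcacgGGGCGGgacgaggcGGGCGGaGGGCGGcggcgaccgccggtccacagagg
Csf1: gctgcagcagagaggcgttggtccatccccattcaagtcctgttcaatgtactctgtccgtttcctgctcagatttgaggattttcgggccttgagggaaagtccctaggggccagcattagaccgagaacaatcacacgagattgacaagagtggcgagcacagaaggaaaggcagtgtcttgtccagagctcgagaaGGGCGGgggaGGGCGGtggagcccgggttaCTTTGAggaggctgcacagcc
The Tnfsf11 promoter held a single match, the letters of the TATA box on the opposite strand, 32 to 27 bases before the start. This motif was present in 12.4% of the 32851 promoters in the table. The Tnfrsf11a promoter had no TATA box letters and held 4 GC boxes between 69 and 24 bases before the start, against at least 1 GC box in 32.7% of all promoters. The Csf1 promoter held 2 GC boxes and, 21 to 16 bases before the start, a TCF/LEF match, a motif found in 13.8% of promoters. GC content of the 250 bases was 60.4% for Tnfsf11, 73.6% for Tnfrsf11a and 56.4% for Csf1, against a median of 52.4% over all promoters.

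Library totals ranged from 12479443 to 16548002 estimated counts and did not differ beyond their spread (exact permutation test, two-sided P = 0.4). The naive 2 library had 16861 genes with at least 10 counts, against 18349 to 18556 in the other naive libraries. The labelled tissue was checked against its markers: the summed normalised count of 12 chondrocyte markers, among them Col2a1 and Acan, ranged from 80957 to 145675 in naive and from 138881 to 195807 in DMM libraries. Markers of bone and marrow were also present in every library. The osteoblast and osteocyte sum ranged from 129841 to 220658 in naive and from 345211 to 428055 in DMM libraries, and the neutrophil lineage sum from 118356 to 178331 and from 51708 to 106636. The erythroid sum ranged from 153895 to 301189 in naive and from 79267 to 170410 in DMM libraries. In every library except naive 4 the osteoblast and osteocyte sum was above the chondrocyte sum. In bulk tissue, a change in the number of cells of a type and a change in RNA per cell cannot be told apart.

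The question put to these libraries was whether expression of these genes differed between cartilage from naive mice and cartilage taken 42 days after DMM. A gene was called when its adjusted P was at most 0.05 and its change at least 1.5-fold in DESeq2, fitted to all genes. By this rule 2429 of 17760 genes with an adjusted P were called (13.7%), 7.75% higher and 5.92% lower in DMM. The split was 1377 higher and 1052 lower, and it became 2030 and 489 when libraries were scaled to total counts. Of the 5 genes described here, 1 was called, Tnfsf11, which was higher in DMM.

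Tnfsf11 normalised read counts were 36.9, 37.3, 55.7 and 55.6 in naive libraries 1 to 4 and 88.7, 93.5, 77.4 and 130.0 in DMM libraries 1 to 4. Every DMM library was above every naive library, and the highest value, in DMM 4, stood well above the other DMM libraries. The mean rose from 46.3 ± 10.7 to 97.4 ± 22.7 (SD, n = 4 each), a 2.10-fold increase (log2 fold change 1.07, SE 0.26, DESeq2 adjusted P = 5.32e-04). Groups did not overlap in either direction for 22.2% of all genes tested. The gene was low in the table, with 28 to 52 estimated counts per naive library and 87 to 144 per DMM library, which limits the precision of each value. It was called in all 8 fits that left out a library and under every other setting tried, with log2 fold changes between 0.90 and 1.22.

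**Figure D1:**
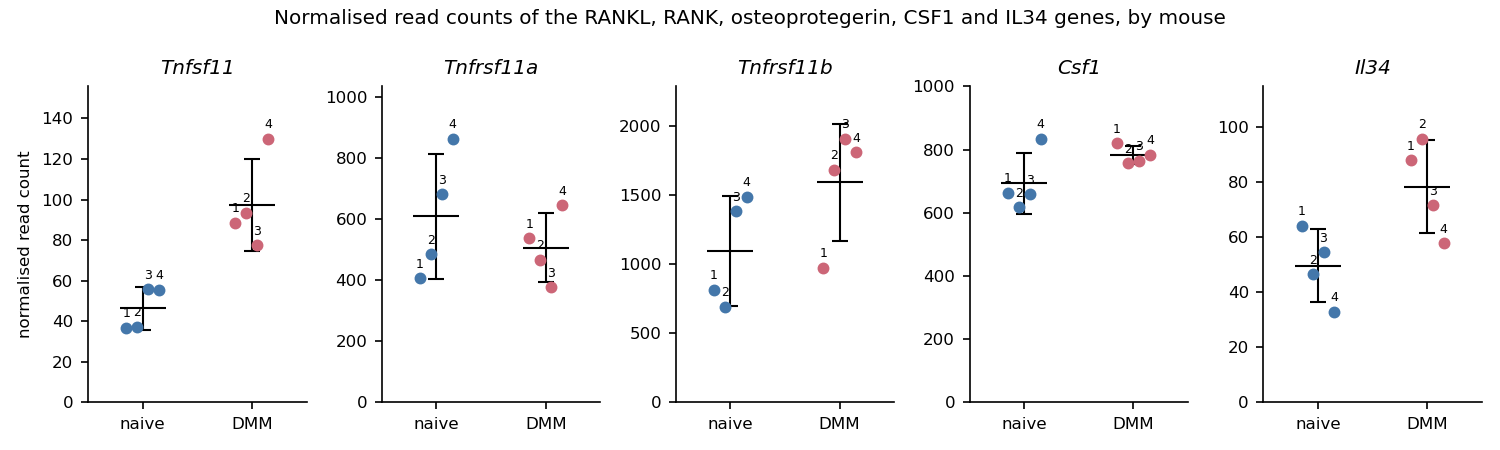
Normalised read count (y axis, linear from 0) of each of the 5 genes in 4 naive and 4 DMM libraries. Points are mice, numbered by replicate, and bars are mean ± SD. The groups are separate only for Tnfsf11, whose lowest DMM value, 77.4, is above its highest naive value, 55.7.

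Tnfrsf11a, the receptor, had normalised counts of 406.3, 485.1, 681.0 and 862.7 in naive and 537.0, 467.1, 376.7 and 645.5 in DMM libraries. The naive values spanned the DMM values almost entirely, with naive 3 and 4 above naive 1 and 2. The means, 608.8 ± 204.9 and 506.6 ± 113.5, did not differ beyond this spread (log2 fold change -0.26, SE 0.24, 95% interval -0.73 to 0.20, DESeq2 adjusted P = 0.479). Part of its transcript is repeated elsewhere: 1.83% of its 31-base words also occur in transcripts of 3604 other genes. All of these shared words lay between bases 2188 and 4222 of the Tnfrsf11a-201 transcript, past its coding sequence, which ends at base 1912. How far reads from such repeats entered its estimated count was not tested.

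Tnfrsf11b, the decoy receptor, had normalised counts of 816.1, 693.1, 1383 and 1490 in naive and 973.6, 1685, 1908 and 1809 in DMM libraries. Naive 3 and 4 exceeded naive 1 and 2 here as well, while DMM 1 was below both of them and the other DMM libraries were above every naive library. The means were 1095 ± 399.2 and 1594 ± 423.4 (log2 fold change 0.54, SE 0.26, 95% interval 0.03 to 1.05), and the difference did not pass the test over all genes (DESeq2 adjusted P = 0.124). The call rested on single libraries: without naive 4 the log2 fold change was 0.72 (DESeq2 adjusted P = 0.0246), and without DMM 1 it was 0.72 (DESeq2 adjusted P = 0.0292).

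Counts of the ligand and its decoy were also compared within each library, which no scaling between libraries can change. The log2 ratio of Tnfsf11 to Tnfrsf11b counts was -4.43, -4.17, -4.61 and -4.72 in naive and -3.44, -4.16, -4.61 and -3.79 in DMM libraries. DMM 1 and 4 were well above all naive libraries, while DMM 2 was level with the highest naive library and DMM 3 lay within the naive range. The mean went from -4.48 ± 0.24 to -4.00 ± 0.50, a difference of 0.48, or from 22.3 to 16.0 Tnfrsf11b counts per Tnfsf11 count. The DMM libraries varied more among themselves in this ratio than the group means differed, and no test was made of it.

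Csf1 had normalised counts of 663.9, 618.6, 658.2 and 834.5 in naive and 821.0, 757.9, 765.6 and 783.4 in DMM libraries. It was the most even of the 5 genes after DMM, and 3 of the naive libraries were below all DMM libraries while naive 4 was above them. The means were 693.8 ± 95.9 and 782.0 ± 28.1 (log2 fold change 0.17, SE 0.12, 95% interval -0.06 to 0.41, DESeq2 adjusted P = 0.33). The upper end of this interval is below a 1.5-fold change.

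Il34 had normalised counts of 64.2, 46.6, 54.6 and 32.9 in naive and 87.9, 95.7, 71.6 and 57.8 in DMM libraries. Only naive 1 and DMM 4 crossed, with the other 3 naive libraries below all DMM libraries. The means were 49.6 ± 13.2 and 78.2 ± 16.9 (log2 fold change 0.65, SE 0.27, 95% interval 0.12 to 1.18), past the fold threshold but not the test (DESeq2 adjusted P = 0.0683). Without naive 1 the log2 fold change was 0.81 (DESeq2 adjusted P = 0.0493) and without DMM 4 it was 0.77 (DESeq2 adjusted P = 0.0374), so this call also turned on single libraries. Scaling to total counts, which moved the median of all genes from -0.01 to 0.14, gave 0.79 (DESeq2 adjusted P = 0.0228). Of the 31-base words of Il34, 2.37% also occur in transcripts of 12 other genes. Il34 overlaps the antisense genes Gm15894 and Gm15895, which had mean normalised counts of 7.87 and 0 in naive and 2.97 and 0.682 in DMM libraries. Whether counting used strand is not given in the sources used here, so reads of these genes and of Il34 may not have been separated.

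The log2 ratio of Csf1 to Il34 counts was 3.35, 3.69, 3.57 and 4.62 in naive and 3.21, 2.97, 3.40 and 3.74 in DMM libraries. Naive 4 had the highest ratio, and the remaining naive libraries lay within the DMM range. The mean was 3.81 ± 0.56 in naive and 3.33 ± 0.32 in DMM, a difference of -0.48 that is smaller than the naive SD.

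**Figure D2:**
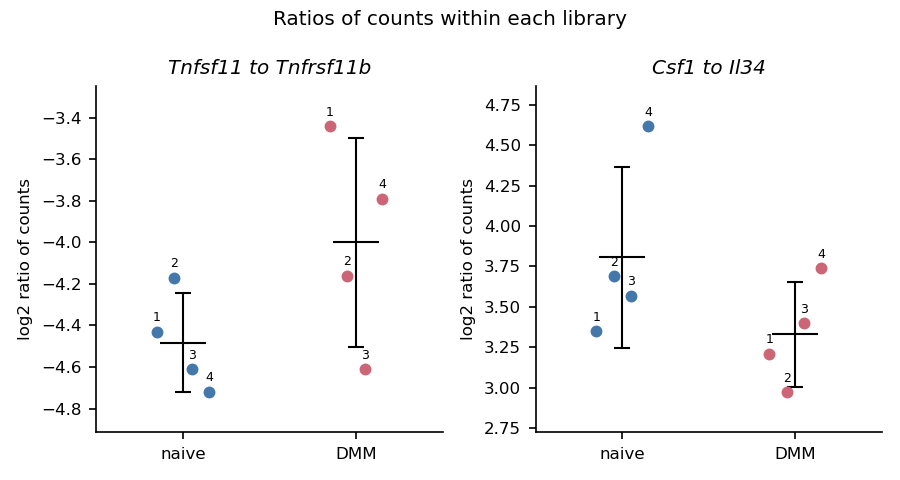
Log2 ratio of counts within each library (y axis, which does not start at 0) for Tnfsf11 to Tnfrsf11b and for Csf1 to Il34, in 4 naive and 4 DMM libraries. Points are mice and bars are mean ± SD. For both ratios the groups overlap, and the group means differ by 0.48 and -0.48.

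Levels were compared between genes as normalised counts per kilobase of exon. The order in naive libraries was Tnfrsf11b (388.7 ± 141.7), Csf1 (131.4 ± 18.2), Tnfrsf11a (101.7 ± 34.2), Il34 (25.3 ± 6.76) and Tnfsf11 (20.7 ± 4.78). The osteoprotegerin transcript was thus the most abundant of the 5, and its lowest naive library, 246.0, was above the highest of Csf1, 158.0. Csf1 and Tnfrsf11a overlapped in their naive ranges, as did Il34 and Tnfsf11. In DMM libraries the order was Tnfrsf11b (565.6 ± 150.3), Csf1 (148.1 ± 5.33), Tnfrsf11a (84.6 ± 19.0), Tnfsf11 (43.6 ± 10.2) and Il34 (39.9 ± 8.65). Tnfsf11 and Il34 again overlapped, while Csf1 was above Tnfrsf11a and Tnfrsf11a above Tnfsf11 in every DMM library. The level of Tnfrsf11b was 18.8 times that of Tnfsf11 in naive and 13.0 times in DMM.

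Within the TNF superfamily, Tnfsf11 was eighth of 18 ligands by mean level per kilobase in naive libraries and the third in DMM libraries. The naive means of ranks 5 to 9 lay close together, from Tnfsf10 (24.3 ± 2.59) to Tnfsf15 (18.9 ± 10.2). Given these spreads, the naive rank of Tnfsf11 (20.7 ± 4.78) was not separate from theirs. In DMM Tnfsf11 lay below Ltb (82.7 ± 22.4), the lymphotoxin beta gene, and Tnfsf12 (73.6 ± 11.0), which encodes TWEAK, and above Tnfsf14 (28.5 ± 6.72), the gene of LIGHT. Of 11 ligands with an adjusted P, Tnfsf11 was called higher and Tnfsf14 was called lower (log2 fold change -0.79, DESeq2 adjusted P = 0.0222). Tnfsf14 was not called by edgeR or limma-voom, and 1 ligand was called without any of naive 1, naive 2, naive 3, DMM 1 or DMM 2. Called genes made up 13.7% of all genes tested. The median log2 fold change of the 11 ligands was -0.23, against -0.02 over all genes tested.

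Among 28 TNF receptors, Tnfrsf11b had the highest mean level in DMM libraries, ahead of Tnfrsf1a (396.5 ± 22.2), the main TNF receptor. In DMM 1, however, Tnfrsf11b was at 345.5, below the Tnfrsf1a mean, so the order does not hold in every library. In naive libraries it was below Tnfrsf14 (414.1 ± 100.4), the receptor of LIGHT, and not separate from it or from Tnfrsf1a (346.8 ± 43.4) given these spreads. Of 26 receptors with an adjusted P, 4 were called higher and 2 lower, against 7.75% and 5.92% of all genes tested. The median log2 fold change was 0.09, and without naive 2 or without DMM 2 the number called was 3. The higher ones were Tnfrsf12a (1.16), which encodes the TWEAK receptor, Tnfrsf19 (0.69), Tnfrsf23 (0.63), a decoy receptor for TRAIL, and Eda2r (1.54), a receptor of ectodysplasin A2, and the lower ones Tnfrsf14 (-0.67) and Relt (-0.72). Scaled to total counts, 4 receptors were called higher and 0 lower, and with the replicate block 2 were called in each direction. Tnfrsf12a rose from 22.9 ± 4.27 to 50.6 ± 16.0 normalised counts (DESeq2 adjusted P = 0.00423), with no overlap between groups.

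**Figure D3:**
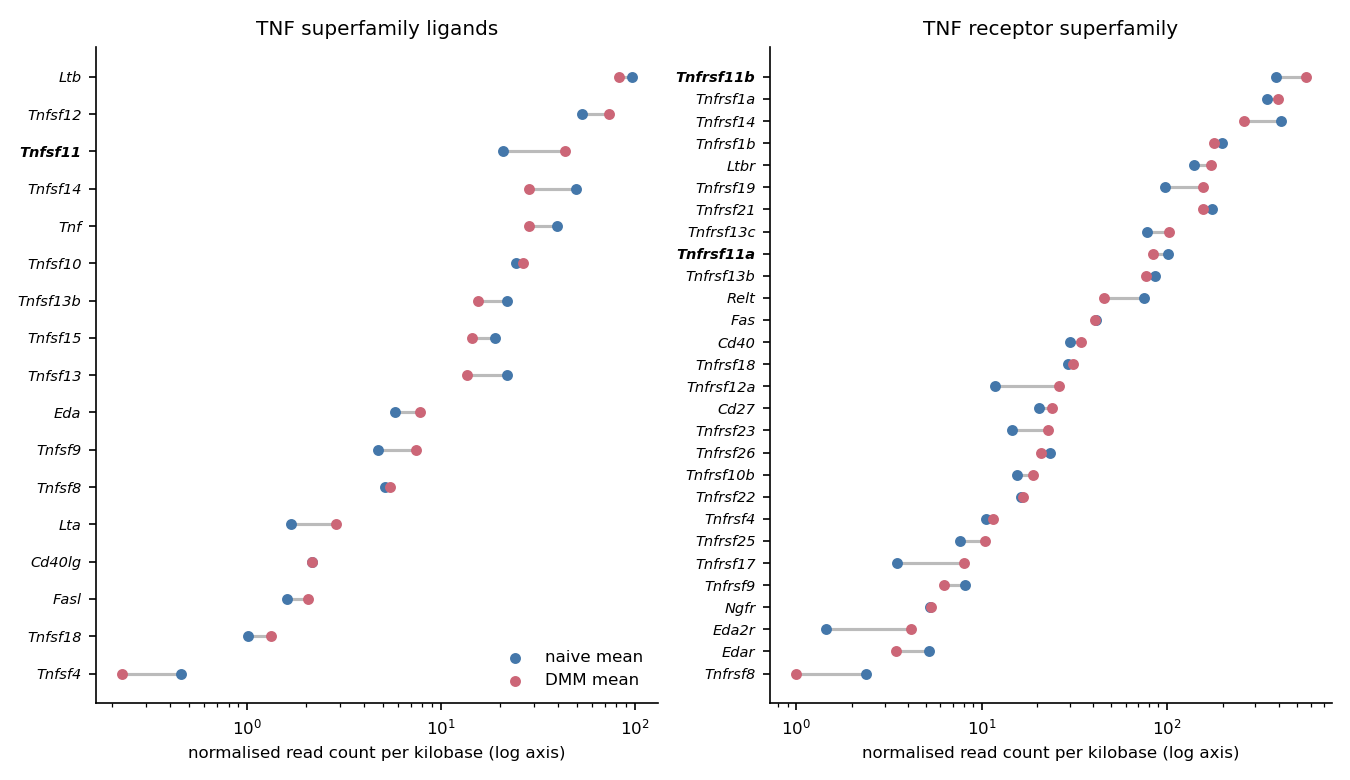
Mean normalised read count per kilobase of exon (x axis, log scale) of TNF superfamily ligands (left) and receptors (right), with naive and DMM means (n = 4 each) joined by a line. Genes are sorted by the DMM mean, the described genes are in bold, and Cd70, at 0 in all libraries, is not drawn. Tnfsf11 is the third ligand in DMM at 43.6, and Tnfrsf11b the highest receptor at 565.6.

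The other receptors and ligands that act with these genes form a list of 11, all with an adjusted P. Sdc1 was called higher and none was called lower, with 13.7% of all genes tested called. The median log2 fold change was 0.12. The count of called partners was 5 without naive 4 (3 higher, 2 lower), 2 without DMM 3 (both higher) and 3 without DMM 4 (1 higher, 2 lower). Sdc1 encodes syndecan-1, a cell surface proteoglycan that binds IL34. Its normalised counts were 310.4, 369.8, 279.3 and 327.7 in naive and 726.5, 575.1, 666.0 and 604.7 in DMM libraries, with the groups far apart. The log2 fold change was 1.0 (SE 0.13, DESeq2 adjusted P = 2.42e-11).

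Csf1r, the receptor shared by CSF1 and IL34, had normalised counts of 1963, 2243, 1848 and 2311 in naive and 2856, 2501, 2133 and 2128 in DMM libraries. The groups overlapped, with DMM 1 highest, and the difference did not pass the test (log2 fold change 0.20, SE 0.13, DESeq2 adjusted P = 0.295). Ptprz1, which encodes a further IL34 receptor, had a log2 fold change of 0.29, with a DESeq2 adjusted P of 0.383. Lgr4, whose product is an alternative receptor for RANKL, had counts of 305.2, 321.9, 299.7 and 374.2 in naive and 465.2, 508.5, 445.4 and 490.1 in DMM libraries. These groups did not overlap and the change passed the test but not the fold threshold (log2 fold change 0.55, SE 0.12, DESeq2 adjusted P = 1.15e-04). Tnfsf10, which encodes TRAIL, the other ligand bound by osteoprotegerin, had a log2 fold change of 0.12, with a DESeq2 adjusted P of 0.701.

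The remaining partners encode the co-stimulatory receptors and adaptors that act beside RANK in osteoclast precursors. Tyrobp (DAP12) had a log2 fold change of -0.47, with a DESeq2 adjusted P of 0.00672 and Fcer1g (the Fc receptor gamma chain) one of -0.57 (DESeq2 adjusted P = 6.30e-04). Pira2 (-0.48, DESeq2 adjusted P = 0.0102) and Fcgr3 (-0.51, DESeq2 adjusted P = 0.0126) had similar values. All 4 were lower in every DMM library than in any naive library, and none reached 1.5-fold. Groups did not overlap, in either direction, for 22.2% of all genes tested. These genes are also used by neutrophils and macrophages, whose marker lists had 8 of 8 and 2 of 10 genes called lower, against 5.92% of all genes tested. By edgeR and by limma-voom, 6 of the 8 neutrophil genes were called. The part of those cells in the values was not tested. Oscar, an osteoclast receptor of this class, had a log2 fold change of 0.64, with a DESeq2 adjusted P of 0.102, and Trem2 one of -0.02 (DESeq2 adjusted P = 0.952).

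**Figure D4:**
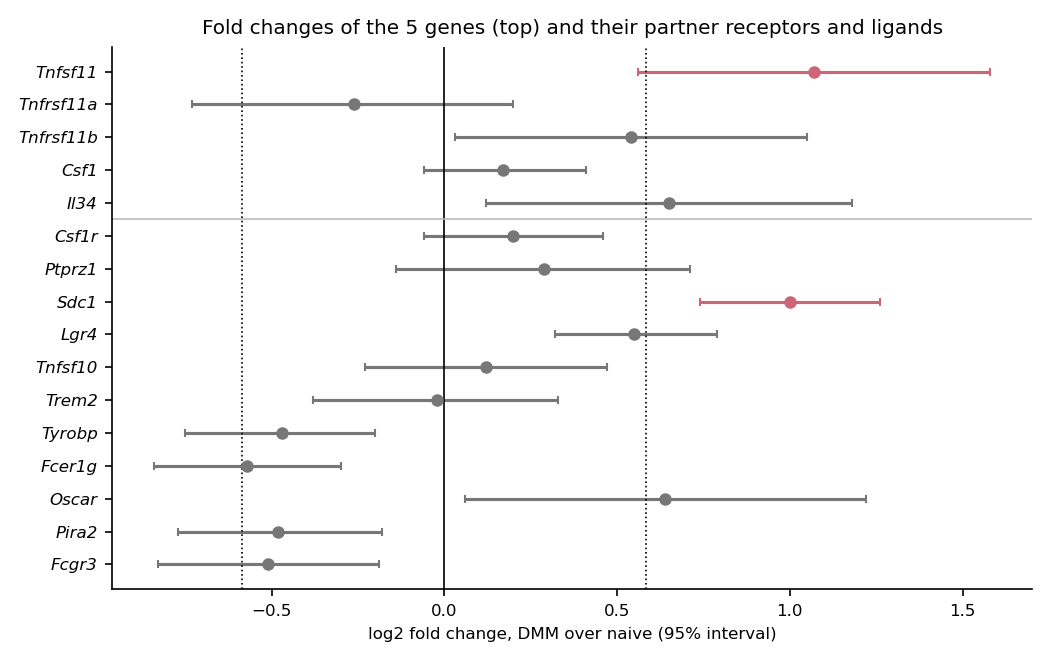
Log2 fold change, DMM over naive, with 95% intervals (x axis) for the 5 genes (above the grey line) and 11 partner receptors and ligands (below it). Dotted lines mark 1.5-fold, and coloured points are called. Tnfsf11 (1.07) and Sdc1 (1.0) are called higher, and Tyrobp, Fcer1g, Pira2 and Fcgr3 lie between -0.47 and -0.57.

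Downstream of RANK and the CSF1 receptor, 28 genes of signal transduction, from the adaptor Traf6 to NF-kB, MAP kinase and Src family members, all had an adjusted P. By DESeq2, edgeR and limma-voom, 0 of the 28 were called, against 13.7% of all genes tested by DESeq2. Of the 28, 7 had an unadjusted DESeq2 P under 0.05. The 28 genes had a median log2 fold change of -0.04. Traf6 had mean normalised counts of 444.3 ± 31.7 in naive and 471.9 ± 74.7 in DMM libraries, and Nfkb1 had 1448 ± 128.0 and 1457 ± 84.6. The 4 genes that passed the test without reaching 1.5-fold were all lower in DMM. They were Mapk14 (log2 fold change -0.48, DESeq2 adjusted P = 0.00223), the p38 kinase gene, Btk (-0.45, DESeq2 adjusted P = 0.00523) and Tec (-0.40, DESeq2 adjusted P = 0.00606), tyrosine kinases of blood cells, and Plcg2 (-0.34, DESeq2 adjusted P = 0.0225), a phospholipase. Mapk14, Btk and Tec were the 3 of the 28 whose groups did not overlap, against 22.2% of all genes tested.

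Of 15 osteoclast transcription factors with an adjusted P, 2 were called higher and none lower, with a median log2 fold change of 0.27, a share near the 13.7% called over all genes. Jun, an AP-1 subunit, rose from 400.1 ± 81.9 to 704.4 ± 114.1 normalised counts (log2 fold change 0.82, DESeq2 adjusted P = 1.03e-04), and Prdm1, which encodes the repressor BLIMP1, rose by a log2 fold change of 0.70, with a DESeq2 adjusted P of 0.00708. Nfatc1, the master regulator induced by RANKL in precursors, had counts of 1306, 1481, 1280 and 1413 in naive and 1831, 1903, 1858 and 1925 in DMM libraries. The groups were separate and the change passed the test below 1.5-fold (log2 fold change 0.46, SE 0.09, DESeq2 adjusted P = 6.62e-06). Spi1, which encodes the myeloid factor PU.1, went the other way (log2 fold change -0.49, DESeq2 adjusted P = 0.00275) and was also under 1.5-fold. AP-1 and NFATc1 genes are expressed outside the osteoclast lineage too. Without DMM 1 the number of called factors was 1.

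Of 15 osteoclast effector genes with an adjusted P, 1 was called in each direction, again a share near 13.7%, with a median log2 fold change of 0.06. Ocstamp, needed for fusion of precursors, rose from 56.5 ± 15.4 to 104.6 ± 27.1 normalised counts (log2 fold change 0.89, DESeq2 adjusted P = 0.0069), although DMM 2 at 72.1 lay below naive 4 at 79.2. Car2, the carbonic anhydrase of osteoclasts, which erythroid cells also express, was lower in all DMM libraries (log2 fold change -0.95, DESeq2 adjusted P = 3.15e-04). The erythroid marker list had 6 of 7 genes called lower, against 5.92% of all genes tested. The part of erythroid cells in the Car2 value was not tested. The resorption enzymes Acp5 (0.51, DESeq2 adjusted P = 0.0601) and Ctsk (0.55, DESeq2 adjusted P = 0.0664) did not pass the test, and Mmp9 had a log2 fold change of 0.06, with a DESeq2 adjusted P of 0.873. Itgb3, the beta-3 integrin of osteoclasts and platelets, was lower in every DMM library than in any naive library, at 4680 ± 775.9 in naive and 3190 ± 100.8 in DMM. This change passed the test below 1.5-fold (log2 fold change -0.55, DESeq2 adjusted P = 2.24e-04). The effector count depended on single libraries, being 5 without naive 4 and 4 without DMM 2.

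Upstream of RANKL, 23 genes known to induce Tnfsf11, or to encode receptors for inducers, had an adjusted P. Of these, 7 were called higher and none lower, against 7.75% and 5.92% of all genes tested. The median log2 fold change of the 23 genes was 0.28. Ptgs2, which encodes the prostaglandin synthase COX-2, had normalised counts of 19.3, 30.6, 23.5 and 26.1 in naive and 112.0, 187.0, 89.7 and 212.1 in DMM libraries, a log2 fold change of 2.60 (SE 0.32) with a DESeq2 adjusted P of 7.10e-13. DMM 4, which had the highest Tnfsf11 count, also had the highest Ptgs2 count, and DMM 3 had the lowest of both among DMM libraries. The naive libraries did not follow this order, since naive 2 had the highest naive Ptgs2 count beside 37.3 Tnfsf11 counts. Il11, a cytokine of the IL6 family, rose from 7.73 ± 2.08 to 43.1 ± 17.7 (log2 fold change 2.48, DESeq2 adjusted P = 4.70e-06). Pth1r, the receptor of parathyroid hormone and its related protein, rose from 811.3 ± 78.7 to 1848 ± 197.5 (log2 fold change 1.19, DESeq2 adjusted P = 1.25e-19), and Osmr, the oncostatin M receptor, from 317.2 ± 55.7 to 616.4 ± 111.7 (log2 fold change 0.96, DESeq2 adjusted P = 2.12e-06).

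Pthlh, which encodes the related protein itself, rose from 16.8 ± 3.08 to 37.0 ± 10.3 normalised counts (log2 fold change 1.15, DESeq2 adjusted P = 0.0105). Il11ra1 and Lif completed the called inducers. Among the inflammatory cytokines of the list, Il1a was lower in every DMM library than in any naive library, at 40.0 ± 6.64 in naive and 21.5 ± 8.98 in DMM (log2 fold change -0.90, DESeq2 adjusted P = 0.0545), and did not pass the test. With low-count genes filtered beforehand, without naive 4 or without DMM 3, 1 inducer was called lower. Il1b had means of 180.1 ± 34.2 in naive and 130.9 ± 47.5 in DMM libraries (DESeq2 adjusted P = 0.213), and Tnf had 64.6 ± 10.7 and 46.3 ± 4.69 (DESeq2 adjusted P = 0.128), neither of which was called. Il6 was near the limit of detection, at 3.18 ± 2.74 and 2.77 ± 1.73, and had no adjusted P. Without naive 1 or without DMM 1 the count of called inducers was 4.

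Of 22 genes that regulate Tnfrsf11b, mostly of the Wnt, TGF-beta and Notch pathways, 10 were called higher and none lower. Over all genes tested, 7.75% were called higher and 5.92% lower. The median log2 fold change of the 22 was 0.52, while Tnfrsf11b itself was not called. Hey1, a target of Notch, rose from 76.6 ± 24.4 to 185.7 ± 43.5 normalised counts (log2 fold change 1.28, DESeq2 adjusted P = 2.43e-05). Tgfb3 (1.09, DESeq2 adjusted P = 5.65e-05) and Tgfb2 (1.25, DESeq2 adjusted P = 1.71e-04) encode ligands of the TGF-beta receptor, Lrp6 (0.59, DESeq2 adjusted P = 1.03e-04) a Wnt co-receptor and Wnt16 (1.21, DESeq2 adjusted P = 0.00504) a Wnt ligand. Tgfb2 and Wnt16 shared with Tnfrsf11b the higher values in naive 3 and 4: Tgfb2 counts were 365.1, 295.9, 683.0 and 831.6 in naive libraries. This split of the naive libraries was not particular to them. In the same list Dkk1 (604.0, 585.3, 1199 and 1180) and Sost (1170, 1039, 2097 and 2890) had it, as did Tnfsf11 and Tnfrsf11a. The list holds Wnt antagonists as well as agonists: Sost (1.06, DESeq2 adjusted P = 0.0381) and Sfrp1 (0.75, DESeq2 adjusted P = 0.023), which inhibit Wnt signalling, were called higher along with Wnt16. The number called fell to between 4 and 6 without any of naive 1, naive 2, naive 3, DMM 1, DMM 2 or DMM 3, and was 7 by edgeR and by limma-voom.

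Of 5 proteases that can release RANKL or CSF1 from the membrane and had an adjusted P, 2 were called higher. Over all genes tested, 7.75% were. Mmp3, a matrix metalloproteinase, had normalised counts of 25.5, 23.9, 62.0 and 45.3 in naive and 615.3, 296.6, 605.9 and 251.8 in DMM libraries, the largest log2 fold change among the called genes of the pathway lists (3.50, SE 0.35, DESeq2 adjusted P = 7.84e-20). Mmp14, a membrane-bound metalloproteinase that cleaves RANKL, rose from 1391 ± 244.9 to 2624 ± 275.0 (log2 fold change 0.92, DESeq2 adjusted P = 2.66e-08). Adam10 (log2 fold change -0.31, DESeq2 adjusted P = 0.0471) and Adam17 (log2 fold change 0.11, DESeq2 adjusted P = 0.561) were not called. Among 11 other haematopoietic cytokine genes, 5 had an adjusted P and 0 were called by DESeq2, edgeR or limma-voom, with 0 at an unadjusted DESeq2 P under 0.05. Kitl (stem cell factor) had a log2 fold change of -0.02 and Cxcl12 one of 0.05.

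Marker lists of bone and cartilage cells were examined beside Tnfsf11, with 7.75% of all genes tested called higher. In the osteoblast and osteocyte list 9 of 10 genes were called higher (median log2 fold change 1.06), in the hypertrophic chondrocyte list 6 of 7 (0.91) and in the chondrocyte list 6 of 11 (0.79). The chondrocyte list was mixed, with negative log2 fold changes for Prg4 (-0.54), Col9a1 (-0.36) and Matn3 (-0.29), none past the test, and for Matn1 (-2.52), which had few counts and no adjusted P. The osteoblast and osteocyte sums of the DMM libraries, 428055, 346857, 398795 and 345211, were all above the highest naive sum, 220658. Within the groups the order differed from that of Tnfsf11: naive 2 had the highest naive sum and 37.3 Tnfsf11 counts, and DMM 4 had the lowest DMM sum and the highest Tnfsf11 count. Per 100000 counts of the osteoblast and osteocyte sum, Tnfsf11 was 28.4, 16.9, 34.2 and 40.4 in naive and 20.7, 27.0, 19.4 and 37.6 in DMM libraries. On this basis the groups overlapped, with means of 30.0 ± 10.0 and 26.2 ± 8.32.

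The hypertrophic chondrocyte sums were 21382, 22929, 26810 and 28985 in naive and 36170, 41600, 47677 and 56861 in DMM libraries. This list holds Runx2, which osteoblasts also express, and Pth1r of the inducer list, so it does not separate these cells from osteoblasts. In the hypertrophic sum, naive 3 and 4 were above naive 1 and 2, as for Tnfsf11, and DMM 4 was highest for both. Per 100000 counts of this sum, Tnfsf11 was 172.7, 162.5, 207.6 and 191.7 in naive and 245.3, 224.8, 162.3 and 228.6 in DMM libraries, so that 3 DMM libraries stayed above all naive libraries and DMM 3 was level with the lowest naive library. Per 100000 counts of the chondrocyte sum, the means were 41.7 ± 6.58 and 58.4 ± 12, with DMM 3, at 40.6, inside the naive range of 34.4 to 48.7. The part of a change in the mix of cells in the Tnfsf11 result was not tested.

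**Figure D5:**
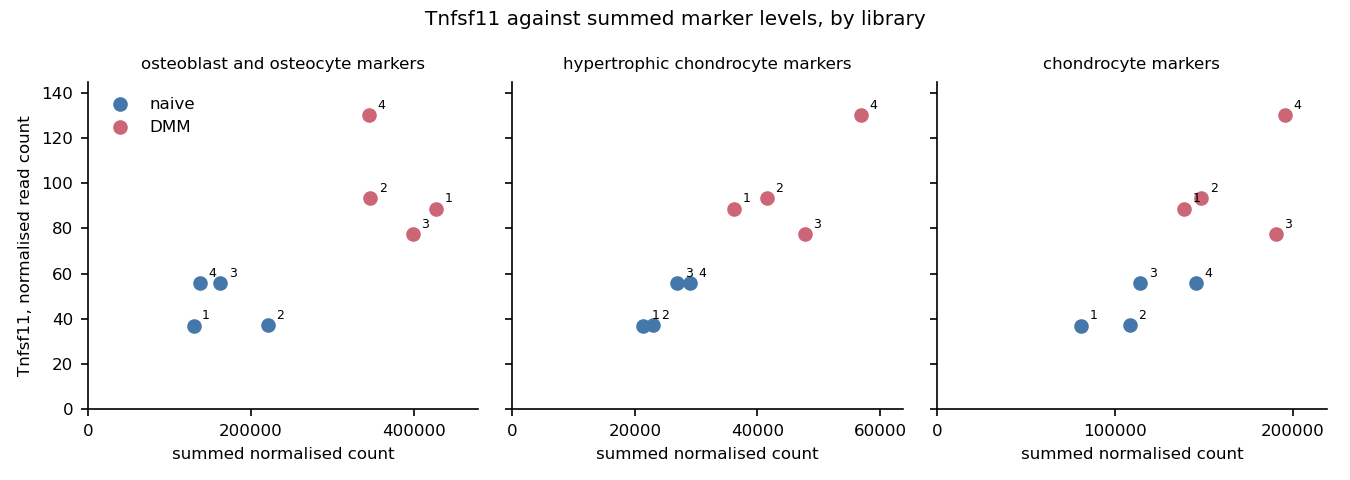
Tnfsf11 normalised read count (y axis) against the summed normalised count of osteoblast and osteocyte, hypertrophic chondrocyte and chondrocyte markers (x axes) in 4 naive and 4 DMM libraries, numbered by replicate. Both axes start at 0. DMM libraries are to the upper right for the osteoblast and osteocyte and the hypertrophic markers, and DMM 4, with 130.0 Tnfsf11 counts, has the highest hypertrophic sum and the lowest osteoblast and osteocyte sum of the DMM libraries.

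For the cells that carry RANK and the CSF1 receptor, the osteoclast list had 1 of 7 genes called higher and the macrophage list 2 of 10 called lower. Over all genes tested, 7.75% were called higher and 5.92% lower. The median log2 fold change was 0.51 in the osteoclast list and -0.19 in the macrophage list, against -0.02 over all genes tested. All 7 osteoclast genes had a positive log2 fold change, and 4 genes of the list had an unadjusted DESeq2 P under 0.05. Osteoclast sums ranged from 10829 to 16771 in naive and from 12531 to 21409 in DMM libraries. Per 100000 counts of the osteoclast sum, Tnfrsf11a ranged from 2822 to 6289 in naive and from 2265 to 3727 in DMM libraries, again overlapping. Synovial fibroblast markers were called higher for 4 of 7 genes, and their sums were 2378 to 3722 and 3556 to 6142. In the endothelial list 2 of 6 were called higher and 1 lower, and in the T cell list 1 of 6 was called lower by DESeq2 and 0 by edgeR and limma-voom. No gene was called by DESeq2, edgeR or limma-voom in the marrow stromal (6 with an adjusted P), B cell (6) or skeletal muscle (2) lists, in which 2, 1 and 0 genes had an unadjusted DESeq2 P under 0.05.

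Last, the genes whose log2 levels followed each of the 5 most closely over the 8 libraries were listed among 13198 genes, as a description. For Tnfsf11 they were Runx2 (Pearson r = 0.985), a transcription factor of osteoblasts and hypertrophic chondrocytes that is itself in the hypertrophic marker list, Rapgef4 (r = 0.984) and Dtna (r = 0.982). In all, 286 genes had r above 0.9 to Tnfsf11, so a high r was not particular to these. With group means removed, Runx2 kept r = 0.94, Rapgef4 0.93 and Dtna 0.92. Runx2 normalised counts were 1326, 1389, 1555 and 1631 in naive and 1995, 1907, 1757 and 2141 in DMM libraries. They were lowest in naive 1 and 2 and highest in DMM 4, as for Tnfsf11, with a smaller change (log2 fold change 0.40, DESeq2 adjusted P = 0.00273). For Tnfrsf11b they were Pld1 (r = 0.985), Timp3 (r = 0.970), an inhibitor of metalloproteinases, and Atp2b1 (r = 0.966), and none of these was called. Csf1 was followed by Gm5113, Zbtb37 and Cyp2u1 (r = 0.979, 0.963 and 0.959) and Il34 by Aff3, Rnf122 and Snx24 (r = 0.960, 0.944 and 0.941).

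For Tnfrsf11a the closest genes were Morn1 (r = 0.977) and the chemosensory receptor pseudogene and gene Vmn1r207-ps (r = 0.974) and Olfr1564 (r = 0.970). All 3 share 31-base words with the repeat-bearing stretch of Tnfrsf11a described above. Of 61 genes with r above 0.9 to Tnfrsf11a, 28 (45.9%) shared such words, against 1852 of the 13197 genes compared (14.0%). All correlations are over the same 8 libraries, and the source of its spread among naive libraries was not tested.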

How the data were processed

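RNA was extracted from medial knee cartilage caps of single mice and sequenced. Per the study's methods the authors trimmed the reads, pseudo-aligned them with kallisto to a mouse GRCm38 transcriptome and summed transcripts to genes, and deposited estimated counts per gene, not normalised, of which 39.2% are not whole. The labels name GRCh38 and a different library kit from the methods. Ensembl gene IDs were matched to GENCODE vM21 (GRCm38) symbols for 48909 of 50462 genes.

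Estimated counts were rounded and fitted over all genes with DESeq2 1.42.0 (R 4.3.3, Wald test, Benjamini-Hochberg adjustment, naive and DMM, no covariates). Genes were called at adjusted P at most 0.05 and at least 1.5-fold. Normalised counts are counts over size factors, and per kilobase values use the union of exons. Ratios used a pseudocount of 1. Alternatives were edgeR 4.0.16, limma-voom (limma 3.58.1), other scalings and filters, a replicate block and leaving out each library. Replicate numbers did not pair the samples, and no pair of libraries agreed within sampling noise. The fit was tested on simulated data.

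The 5 genes, the 10 pathway lists and the 13 marker lists were chosen with earlier results of these data known, so their counts are descriptions. Named were the 5 genes, all partners, up to 5 called genes per list by adjusted P, and the 3 closest genes by Pearson r (mean of at least 50 normalised counts). Other genes, such as Nfatc1, Spi1, Acp5, Ctsk, Il6, Tnf, Il1a, Itgb3, Mapk14, Matn1, Traf6, Adam10, Kitl, Runx2, Sost and Sfrp1, were named after their values were seen. Mice are separate animals, so P-values measure the spread between mice.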

Additional observations from a re-analysis of the deposited data

Results flagged for a closer look

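In groups of 4 libraries, a value was singled out where its gap to the nearest other library was unusually large for the range of the group. Of 64 groups examined, 4 had such a value, and about 3.2 would be so by chance. None of them was a value of the 5 genes or of their ratios. The summed marrow stromal markers were 19010 in DMM 2, against 11735 to 12963 in the other DMM libraries. The summed erythroid markers were 170410 in DMM 3, against 79267 to 84846. The summed skeletal muscle markers were 1258 in DMM 1, against 40.4 to 145.9. The naive 2 library had 16861 genes with at least 10 counts, against 18349 to 18556. DMM 1, DMM 2 and DMM 3 were each left out in turn, and Tnfsf11 was called in every case.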

How the results depend on the processing

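Tnfsf11 was called under all settings, with leave-one-out log2 fold changes of 0.90 to 1.17. Neither Tnfrsf11a (-0.41 to -0.05) nor Csf1 (0.12 to 0.27) was called when any library was left out. Tnfrsf11b ranged from 0.38 to 0.72 and Il34 from 0.49 to 0.81, each called in 2 of the 8 such fits. Scaling to total counts gave 0.79 for Il34, and raised the called partners to 3, osteoclast transcription factors to 6 and effectors to 4, with the median of all genes shifted to 0.14. Over all genes this scaling called 2030 higher and 489 lower, against 1377 and 1052 in the main fit. Without the fold threshold 4010 genes were called, with 6 partners (4 lower), 4 signal transduction genes (all lower), 8 transcription factors and 12 inducers of Tnfsf11. Regulators of Tnfrsf11b fell to 6 without independent filtering, and the TNF ligands to 1 by edgeR and limma-voom. When single libraries were left out, the called genes numbered 1 to 5 for partners, 1 to 3 for transcription factors, 2 to 5 for effectors, 4 to 9 for inducers, 4 to 11 for regulators, 1 to 3 for TNF ligands and 3 to 7 for TNF receptors. The number called over all genes moved too, from 1858 without naive 1 to 2842 without naive 4, against 2429 with all libraries. The cause was not tested. Levels over the longest transcript were, relative to Tnfsf11, 5.84 (naive) and 2.31 (DMM) for Tnfrsf11a, and 8.02 and 4.30 for Csf1, against 4.91, 1.94, 6.34 and 3.40 over the exon union.

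Samples with the same replicate number did not deviate together (r = 0.05, 0.06, -0.12 and 0.12), so the numbers were not taken as pairs. With the replicate block, Tnfsf11 stayed at 1.07 (DESeq2 adjusted P = 0.00432) and Tnfrsf11b was at 0.56 (DESeq2 adjusted P = 0.0245), under the fold threshold, while called inducers numbered 4, regulators 5 and TNF ligands 1. The Tnfsf11 and Il34 counts are low, which limits the precision of their fold changes, and 4 mice per group limit all of them.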
